A study of Mus musculus with 6 samples.

Results

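Transcripts of the cartilage collagens, types II, IX, X and XI, were followed in primary mouse osteoblasts, labelled either wild-type (WT) or knockout for the 3 Tet genes. The group was set by name as Col2a1, Col9a1, Col9a2, Col9a3, Col10a1, Col11a1 and Col11a2, which are 7 of the 16455 genes listed in the count table. All 7 were lower in the mutant cells, by 2.95-fold to 12.7-fold, and the falls were unequal among the chains of types IX and XI. The mutant, called TCKO for triple conditional knockout, carried Prx1-Cre with Tet1 fl/fl, Tet2 fl/fl and Tet3 fl/fl. Prx1-Cre is active in mesenchyme of the limb and the skull, so cells of other origin in a culture keep their Tet genes. Mice of both genotypes were of strain C57/B6 and 3 days old, and the cells, which the methods describe as released from parietal bone by enzymes, were cultured for 3 days. There were 3 libraries of total RNA per genotype, here called WT 1 to WT 3 and TCKO 1 to TCKO 3 by their replicate numbers. The labels name no separate animal or culture for a library, so p-values cover just the scatter among these 6 samples, part or all of which could be technical.

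Collagens are built of 3 chains wound into a triple helix. Type II, made of the product of Col2a1 alone, forms the fibrils of cartilage. Type XI sits within these fibrils and limits their width; it is made from the products of Col11a1, Col11a2 and Col2a1. Type IX, made from the products of Col9a1, Col9a2 and Col9a3, is attached to the fibril surface and links it to other matrix. Type X, the product of Col10a1, is the network collagen of hypertrophic chondrocytes. SOX9, SOX5 and SOX6 drive most of these genes in chondrocytes, and RUNX proteins drive Col10a1. Osteoblasts make mainly type I collagen, and the parietal bone forms largely without a cartilage template. TET proteins oxidise methylated cytosine at CpG dinucleotides, the first step of its removal from DNA.

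The total of a library was between 8119261 and 10657824 reads, so that a gene at 1 CPM (1 count in 1000000 reads, with scaled library sizes) had between 8.1 and 11 reads. In each genotype, replicates 1 and 2 resembled each other closely, with a chi-square per degree of freedom of 1.75 in WT and 2.53 in TCKO against 15.8 to 23.0 for the pairs with replicate 3. They differed by more than sampling noise and were kept as separate libraries. Values within replicates 1 and 2 and within replicate 3 are therefore given beside the pooled ones. The osteoblast label was checked against 14 markers. Col1a1, Col1a2 and Sparc were the most abundant of them by the mean over all libraries. In TCKO alone Spp1, at 8195 CPM on average, was above Col1a2 (7270 CPM) and Sparc (5273 CPM). Bglap and Dmp1 had no value in the table, and Bglap2 and Phex lay below 1 CPM on average in both genotypes.

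The targeted genes were looked at first. Tet1 had between 8.86 and 11.03 CPM in WT against 6.53, 4.67 and 3.99 CPM in TCKO 1 to TCKO 3, with no overlap, and was 1.92-fold lower (-0.94 ± 0.22, edgeR adjusted p = 0.0207). Tet2 had 13.6, 15.2 and 15.3 CPM against 14.2, 9.83 and 12.1, which overlapped (-0.29 ± 0.16, edgeR adjusted p = 0.244). Tet3 had 43.3, 46.3 and 41.6 CPM against 66.4, 57.5 and 59.1, and each library labelled TCKO was above each WT library (0.48 ± 0.09, edgeR adjusted p = 0.00803). The whole-gene level of Tet3 thus went against the direction that its label gives, and that of Tet2 did not pass. The table has 1 count per gene and no count per exon, so whether the deleted exons were absent was not tested, and WT and TCKO below are the names in the labels.

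The promoters are shown because CpG dinucleotides are where TET proteins act and because the genes fell together. RefSeq start sites of the mouse build GRCm38.p6 were given for 5 of the 7 genes, in 6 windows. Each line holds the 250 bases before a start site, 5′ to 3′ on the strand of the gene, with every CpG in capitals. The gene coordinates given further on are those of GENCODE M21 and differ from RefSeq for 2 genes. The GENCODE start of Col9a2 (121039385) lies inside its window, and that of Col11a2 (34039437) lies past the end of its window. The windows are chr1:24177360-24177609 for Col9a1, chr4:121039316-121039565 for Col9a2, chr10:34389731-34389980 for Col10a1, chr3:114030290-114030539 for Col11a1 and chr17:34038888-34039137 for Col11a2, all on the + strand.
Col9a1: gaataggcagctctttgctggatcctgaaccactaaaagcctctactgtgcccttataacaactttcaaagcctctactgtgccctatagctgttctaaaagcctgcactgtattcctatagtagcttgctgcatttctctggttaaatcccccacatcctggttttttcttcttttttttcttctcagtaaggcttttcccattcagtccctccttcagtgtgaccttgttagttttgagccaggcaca
Col9a2: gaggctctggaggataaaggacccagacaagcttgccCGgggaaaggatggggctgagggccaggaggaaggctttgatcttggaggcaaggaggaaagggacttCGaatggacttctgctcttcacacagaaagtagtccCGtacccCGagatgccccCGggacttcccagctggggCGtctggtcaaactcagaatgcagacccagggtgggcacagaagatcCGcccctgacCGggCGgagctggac
Col10a1: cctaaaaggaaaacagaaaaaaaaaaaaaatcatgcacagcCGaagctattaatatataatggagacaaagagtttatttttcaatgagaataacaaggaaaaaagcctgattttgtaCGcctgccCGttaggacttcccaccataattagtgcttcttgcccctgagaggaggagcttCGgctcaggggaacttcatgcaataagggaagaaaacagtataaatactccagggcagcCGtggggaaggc
Col11a1: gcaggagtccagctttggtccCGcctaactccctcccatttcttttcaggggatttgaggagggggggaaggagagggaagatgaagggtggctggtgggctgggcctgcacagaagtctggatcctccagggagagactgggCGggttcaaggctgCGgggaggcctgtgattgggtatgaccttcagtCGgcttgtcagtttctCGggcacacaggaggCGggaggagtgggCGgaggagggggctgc
Col11a2: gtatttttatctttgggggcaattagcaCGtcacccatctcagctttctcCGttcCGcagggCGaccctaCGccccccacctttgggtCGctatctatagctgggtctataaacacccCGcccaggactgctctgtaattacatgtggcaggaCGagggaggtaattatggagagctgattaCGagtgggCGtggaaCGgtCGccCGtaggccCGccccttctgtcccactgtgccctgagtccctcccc

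The 5 windows shown held from 0 to 14 CpG dinucleotides. The window of Col9a1 held 0, as did that of its second start site at chr1:24194953-24195202, which lies within the gene. Col10a1 held 5, Col11a1 7, Col9a2 9 and Col11a2 14, where the median of all 32851 promoter windows was 6. Methylation was not part of the data used here. The letters TATAAA occurred in the windows of Col10a1, from base -32 to -27 before the start, and Col11a2, from -143 to -138, and in 12.4% of all windows on either strand. The SOX letters ACAATG or ACAAAG occurred in 1 of the 6 windows, that of Col10a1 (ACAAAG from -185 to -180), and in 25.2% of all windows. The RUNX letters TGTGGT or TGCGGT occurred in none of the 6 and in 18.6% of all. The 3 matches do not overlap each other.

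The first question was which cartilage collagen transcripts differ between genotypes. All 7 genes were tested, all 7 were lower in TCKO at an edgeR adjusted p under 0.05, and 0 were higher. Among the 13630 genes tested, 8.90% were lower and 9.44% higher by this rule. All 7 also fell by more than 2-fold, a rule met by 3.06% of genes. In each of the 7 genes every TCKO library lay below every WT library, which held for 18.9% of genes. The median log2 fold change of the 7 was -3.02 and that of all genes tested was 0.00. The median stayed between -3.25 and -2.59 under each of the 15 other settings, in which a library was left out or the scaling, filter or test was changed. Col10a1 passed the filter on low counts only through WT, so its direction was set in advance. It is counted above but gives these counts and the median no support. In bulk RNA fewer cells that make a transcript and less of it per cell cannot be told apart.

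**Figure D1:**
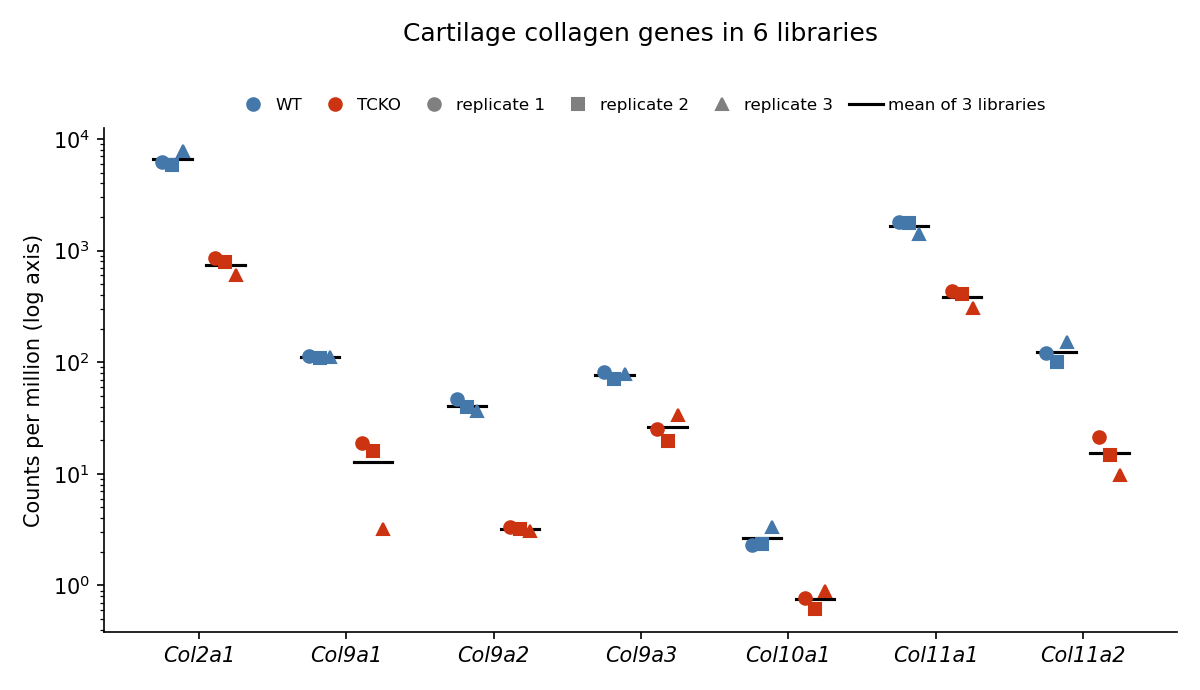
CPM on a log axis for the 7 genes. Points are libraries (blue WT, red TCKO, shape by replicate number) and black lines are means of 3. The red points lie below the blue ones in all 7 genes, and Col9a1 is at 3.21 in TCKO 3 against 18.9 and 15.9 in replicates 1 and 2.

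Col2a1 (chromosome 15, 97975602 to 98004695, minus strand, GRCm38) encodes the chain of type II collagen. Its CPM values were 6290, 5835 and 7833 in WT replicates 1 to 3 and 851, 790 and 608 in TCKO replicates 1 to 3. The genotypes were far apart, and replicate 3 was the highest in WT and the lowest in TCKO. Col2a1 was 8.87-fold lower in TCKO (log2 fold change -3.15 ± 0.17 SE, n = 3 per genotype, edgeR adjusted p = 6.38e-05). The log2 difference was -2.88 within replicates 1 and 2 and -3.69 within replicate 3. Per kilobase of exon, as RPKM, Col2a1 had 720 ± 113 (SD, n = 3) in WT, the 33rd highest level of 15496 genes with a known exon length. In TCKO it had 81.1 ± 13.7 RPKM, rank 543. Reads of Col2a1 thus remained plentiful in TCKO, with 5489 to 7689 per library.

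The chains of type XI fell to different degrees. Col11a1 (chromosome 3, 114030540 to 114220718, plus strand), the alpha 1 chain, had 1816, 1759 and 1409 CPM in WT against 433, 413 and 307 CPM in TCKO. Replicate 3 was lowest in both genotypes. It was 4.32-fold lower in TCKO (-2.11 ± 0.16, edgeR adjusted p = 0.000200), with log2 differences of -2.08 within replicates 1 and 2 and -2.20 within replicate 3. Col11a2 (chromosome 17, 34039437 to 34066685, plus strand), the alpha 2 chain, had 121, 101 and 151 CPM in WT against 21.6, 14.6 and 9.74 CPM in TCKO. Here replicate 3 was highest in WT and lowest in TCKO, as for Col2a1. Col11a2 was 8.09-fold lower (-3.02 ± 0.29, edgeR adjusted p = 0.00142), and the log2 difference was -2.64 within replicates 1 and 2 and -3.95 within replicate 3.

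The 3 chains of type IX separated most. Col9a1 (chromosome 1, 24177610 to 24252684, plus strand) had 114, 110 and 112 CPM in WT against 18.9, 15.9 and 3.21 CPM in TCKO. The WT libraries were nearly equal, with a coefficient of variation of 2.05%, while TCKO 3 stood far below the other TCKO libraries. Its 29 reads in that library have an exact 95% Poisson interval of 19.4 to 41.6 reads, which covers counting error only. Col9a1 was 8.88-fold lower (-3.15 ± 0.52, edgeR adjusted p = 0.0128), with log2 differences of -2.69 within replicates 1 and 2 and -5.13 within replicate 3. Col9a2 (chromosome 4, 121039385 to 121055322, plus strand) had 47.0, 39.7 and 36.2 CPM in WT against 3.32, 3.20 and 3.10 CPM in TCKO. The TCKO libraries were almost the same, each with 26 to 30 reads. Col9a2 was 12.7-fold lower (-3.67 ± 0.15, edgeR adjusted p = 1.11e-05), the strongest fall of the 7, and the log2 difference was -3.73 within replicates 1 and 2 and -3.55 within replicate 3.

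Col9a3 (chromosome 2, 180597790 to 180622189, plus strand) had 81.4, 71.3 and 78.7 CPM in WT against 25.5, 19.5 and 33.3 CPM in TCKO. In contrast to Col9a1, its highest TCKO value was that of replicate 3. Col9a3 was 2.95-fold lower (-1.56 ± 0.18, edgeR adjusted p = 0.00131), the smallest fall of the 7, with log2 differences of -1.77 within replicates 1 and 2 and -1.24 within replicate 3. The end of Col9a3 shares 234 exon bases with Tcfl5, a gene on the other strand. No source used here states whether counting used strand, so reads of the shared bases cannot be assigned. Tcfl5 had 22.7 to 25.3 CPM in WT and 13.1 to 23.1 CPM in TCKO, a difference that did not pass (-0.36 ± 0.20 on the log2 scale, edgeR adjusted p = 0.248).

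Col10a1 (chromosome 10, 34389981 to 34397085, plus strand) was at the limit of detection. Its CPM values were 2.30, 2.37 and 3.36 in WT against 0.775, 0.614 and 0.886 in TCKO, from 20, 25 and 28 reads and 7, 5 and 8 reads. The genotypes did not overlap, but the exact 95% Poisson intervals of single libraries did: 12.2 to 30.9 reads in WT 1 and 3.45 to 15.8 reads in TCKO 3. Col10a1 was 3.45-fold lower (-1.79 ± 0.33, edgeR adjusted p = 0.00867), and the log2 difference was -1.76 within replicates 1 and 2 and -1.92 within replicate 3. It passed the filter on low counts only through WT, so it had to be higher there to be tested at all. The gene lies inside Nt5dc1, on the other strand, and shares 18 exon bases with it. Nt5dc1 had 9.32 to 9.59 CPM in WT and 6.53 to 7.13 CPM in TCKO (log2 fold change -0.48 ± 0.14, edgeR adjusted p = 0.0505).

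The calls of Col9a1 and Col10a1 were the least firm. Each of the 7 genes passed with any 1 library left out, and the largest edgeR adjusted p in these fits was 0.0437 for Col9a1 and 0.0434 for Col10a1. With replicates 1 and 2 summed into 1 library, leaving 2 per genotype, 5 of the 7 passed. The edgeR adjusted p was then 0.105 for Col9a1 and 0.105 for Col10a1, and between 0.00512 and 0.0337 for the others.

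**Figure D2:**
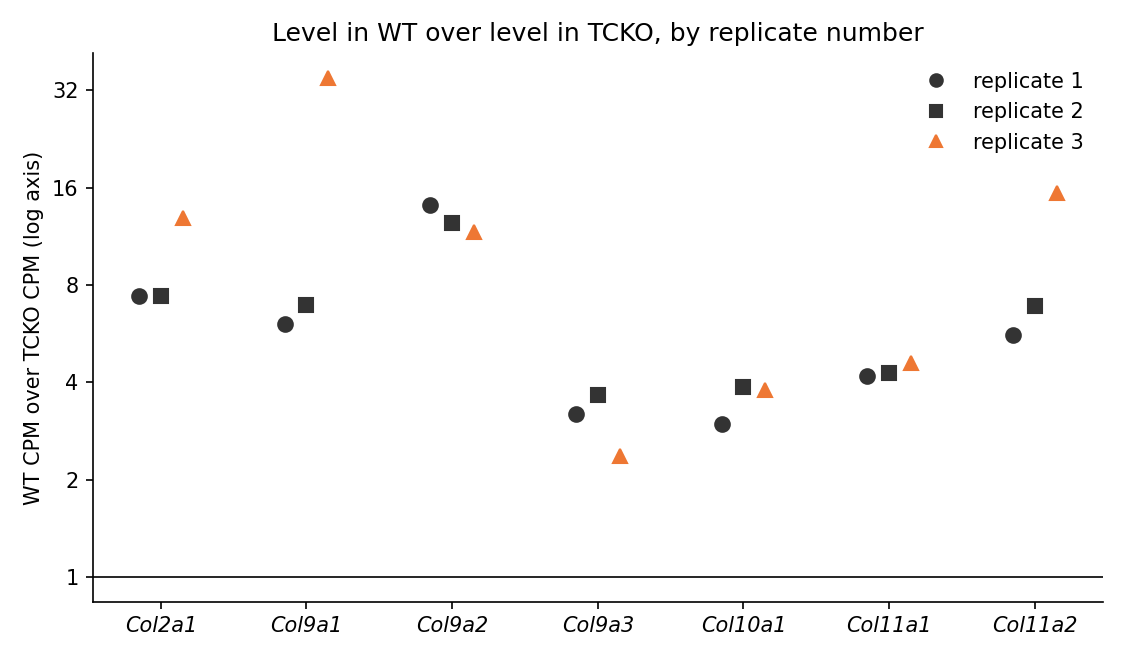
CPM in WT over CPM in TCKO for libraries of the same replicate number, on a log axis where 1 means no difference. Replicate 3 (orange) lies above replicates 1 and 2 for Col2a1 (12.9 against 7.39 and 7.38), Col9a1 (35.0 against 6.04 and 6.93) and Col11a2 (15.5 against 5.61 and 6.89), and below them for Col9a2 and Col9a3.

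The order of levels per kilobase of exon was compared among the 7 genes. In WT, Col2a1 was followed by Col11a1 (130 ± 17.3 RPKM), Col9a1 (22.1 ± 0.45), Col9a3 (18.5 to 21.1 in the 3 libraries), Col11a2 (18.1 ± 3.64), Col9a2 (13.2 ± 1.78) and Col10a1 (0.855 ± 0.188). The library values of Col9a3 and Col11a2 overlapped, as did those of Col11a2 and Col9a2, and the other neighbours in this order did not overlap. In TCKO the order was Col2a1, Col11a1 (30.2 ± 5.32 RPKM), Col9a3 (6.78 ± 1.79), Col9a1 (2.50 ± 1.64), Col11a2 (2.23 ± 0.866), Col9a2 (1.04 ± 0.036) and Col10a1 (0.242 ± 0.044). Among neighbours in this order Col9a1 and Col11a2 overlapped, and Col9a1, at 0.634 to 3.74 RPKM, also spanned the range of Col9a2 (1.00 to 1.07 RPKM). Col9a3 thus moved ahead of Col9a1.

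The proportions of the chains were examined as log2 ratios of CPM in each library, for 10 pairs of genes. With 3 libraries against 3 the exact 2-sided permutation test cannot give a p under 0.10, and after adjustment over the 10 ratios the smallest value was 0.167, so none of these differences could pass 0.05. In 6 of the 10 ratios the genotypes did not overlap (exact permutation p = 0.10 each). These were Col9a3, Col10a1 and Col11a1 over Col2a1, Col9a3 over Col9a2, Col9a1 over Col9a3, and Col11a2 over Col11a1. The ratios reuse the same genes, so they are not separate results. How often other gene pairs separate was not computed, so the count of 6 is a description only.

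Transcripts of type XI were set against those of type II first. Per kilobase of exon, the ratio of Col11a1 to Col2a1 was 0.209, 0.219 and 0.130 in WT against 0.369, 0.379 and 0.366 in TCKO, so the TCKO libraries were nearly equal and above WT. The log2 ratio was higher by 1.03 in TCKO. The ratio of Col11a2 to Col2a1 was 0.0259, 0.0232 and 0.0259 in WT against 0.0341, 0.0249 and 0.0216 in TCKO and overlapped between genotypes. Within type XI, Col11a2 over Col11a1 was 0.124, 0.106 and 0.198 in WT against 0.0924, 0.0657 and 0.0588 in TCKO. This log2 ratio was lower by 0.95 in TCKO, with no overlap (shown as a difference of -0.95 in the plot of chain ratios).

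Within type IX, the share of each chain differed between genotypes. The share of Col9a3 in the summed level of type IX transcripts per kilobase of exon was 35.9%, 34.9% and 37.6% in WT against 57.9%, 54.9% and 84.1% in TCKO. The share of Col9a2 was 25.8%, 24.2% and 21.5% in WT against 9.40%, 11.2% and 9.74% in TCKO, again without overlap. The share of Col9a1 was 38.3%, 40.9% and 40.8% in WT against 32.7%, 33.9% and 6.16% in TCKO. Each of the 3 chains thus held between 21.5% and 40.9% in WT. The transcripts of Col9a3 outnumbered those of Col9a2 1.39-fold to 1.75-fold in WT and 4.91-fold to 8.64-fold in TCKO. The log2 ratio of Col9a3 to Col9a2 differed by 2.05 between genotypes (2.92, 2.59 and 3.40 in TCKO against 0.79, 0.84 and 1.12 in WT), and by 1.83 without TCKO 3. The log2 ratio of Col9a1 to Col9a3 differed by -1.90, and by -0.91 without TCKO 3, which carried a large part of that difference. The shared bases of Col9a3 and Tcfl5 touch each of these ratios, and their part was not tested.

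**Figure D3:**
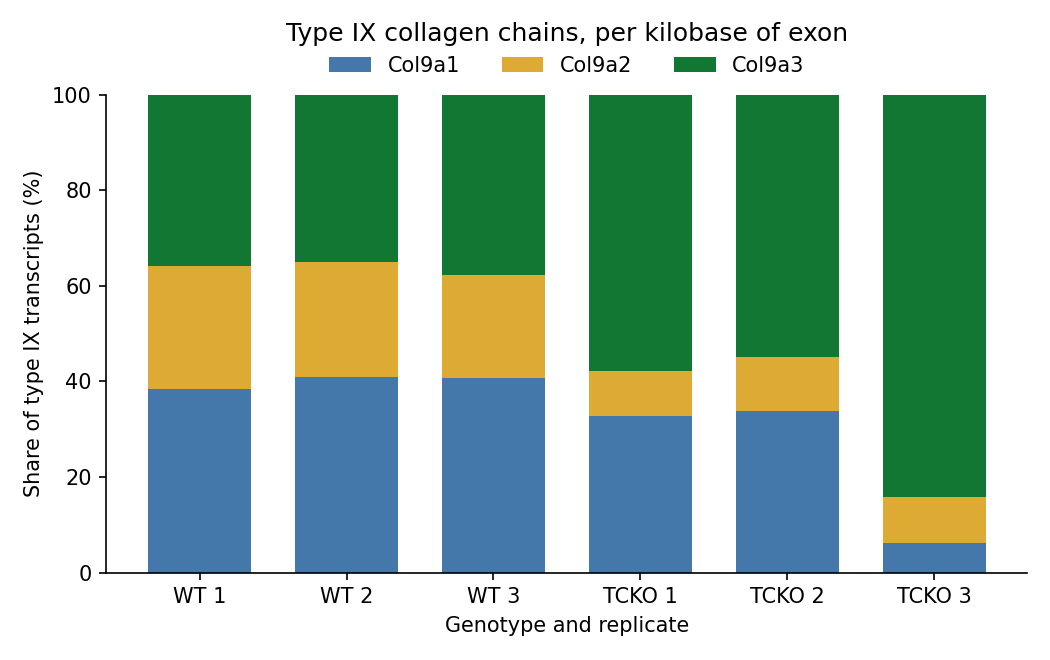
Share of each chain among type IX transcripts, in percent of the summed level per kilobase of exon, in the 6 libraries. Col9a3 takes 34.9% to 37.6% in the WT bars and 54.9% to 84.1% in the TCKO bars, and Col9a1 shrinks to 6.16% in TCKO 3.

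**Figure D4:**
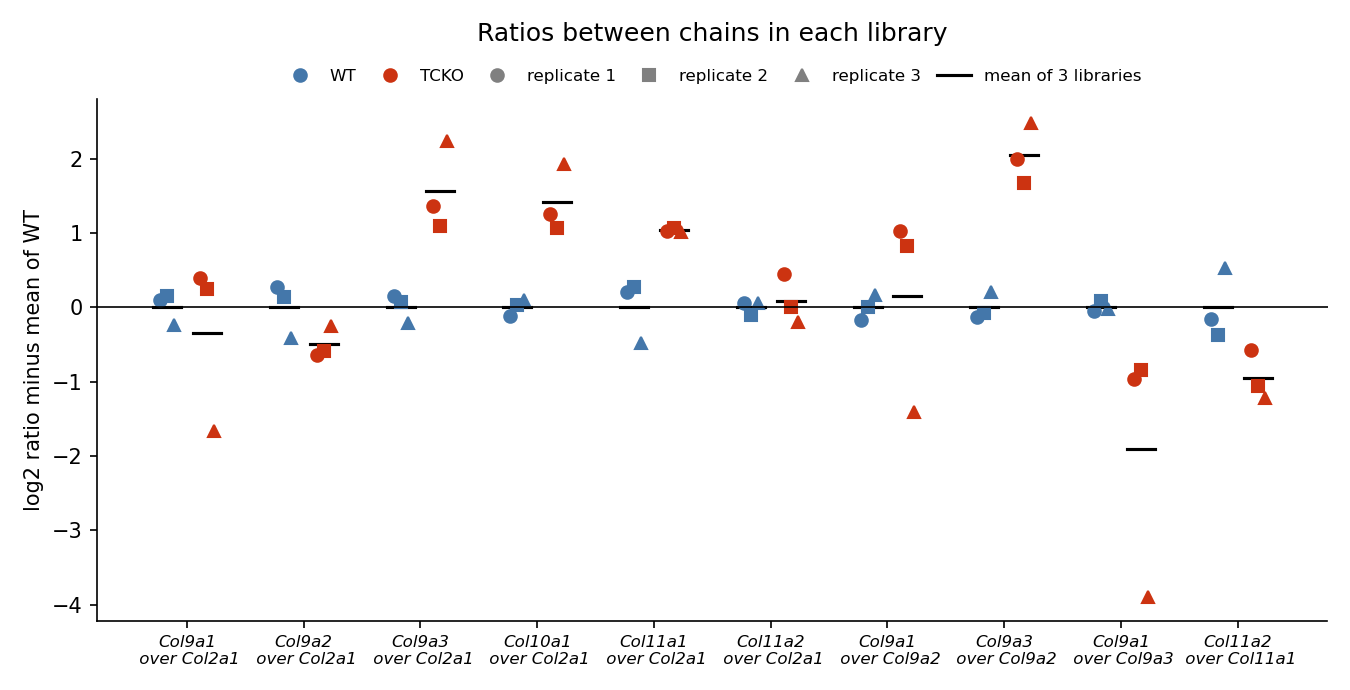
Log2 ratio of CPM between 2 genes in each library, minus the mean of the WT libraries, for 10 pairs of genes. Points are libraries (blue WT, red TCKO, shape by replicate number) and black lines are means of 3. Red and blue separate in 6 pairs, with Col9a3 over Col9a2 raised by 2.05 and Col11a2 over Col11a1 lowered by 0.95.

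Cartilage collagens were a smaller part of all collagen transcripts in TCKO. They made up 12.6%, 12.2% and 15.5% of all reads on the 38 collagen genes listed in WT against 3.04%, 2.80% and 3.17% in TCKO, a clear separation. Col1a1 and Col1a2 together held 47.7% to 48.5% of collagen reads in WT and 42.7% to 48.7% in TCKO. Of the summed level of Col2a1 and Col1a1 per kilobase, Col2a1 was 19.1% to 24.5% in WT and 4.19% to 4.61% in TCKO. Type V collagen is the relative of type XI in non-cartilage tissue, and the alpha 1 chain of type XI can join type V chains in mixed molecules. Col11a1 was 17.3% to 21.1% of the summed level of Col11a1 and Col5a1 in WT and 7.92% to 9.22% in TCKO.

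The other collagens were examined by class. Of 7 other fibrillar collagens tested, 2 were lower, 1 was higher and 4 did not pass, with a median log2 fold change of -0.47. Col5a1 was lower (-0.74 ± 0.10, edgeR adjusted p = 0.00219) and Col5a3, a further type V chain, was higher (1.60 ± 0.21, edgeR adjusted p = 0.00230). Col1a1 passed as well (-0.64 ± 0.15, edgeR adjusted p = 0.0232), but no longer did so without WT 1 (0.101), WT 2 (0.0847) or TCKO 1 (0.0624). With the replicate number as a block, 4 of the 7 were lower, since Col1a2 (edgeR adjusted p = 0.0792 without the block and 0.0335 with it) and Col5a2 (0.0673 and 0.0216) passed as well, and 4 were also lower without TCKO 3.

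Of 5 other fibril-associated collagens tested, the relatives of type IX, 1 was lower and 4 did not pass. That gene, Col12a1 (-0.44 ± 0.10, edgeR adjusted p = 0.0204), did not pass without WT 1 (0.0946), WT 2 (0.0992), TCKO 1 (0.0635) or TCKO 2 (0.0937). With the block 2 of the 5 were lower, Col14a1 being the second (0.225 without the block and 0.0324 with it). Of 14 remaining collagens, 3 were lower, 2 higher and 9 did not pass, and 4 were higher with the block. Col8a2, a network collagen like type X, was lower (-2.10 ± 0.21, edgeR adjusted p = 0.00116), and Col7a1, the anchoring fibril collagen of skin, was higher (3.15 ± 0.47, edgeR adjusted p = 0.00941). Both passed with each library left out, whereas the lower Col15a1 and Col6a3 and the higher Col4a1 each lost the call in 4 of these 6 fits. These were the fits without WT 1 or 2 or TCKO 1 or 2 for Col15a1 (edgeR adjusted p = 0.116, 0.0984, 0.0769 and 0.0999) and Col4a1 (0.0573, 0.0672, 0.0641 and 0.0606), and those without WT 1, 2 or 3 or TCKO 2 for Col6a3 (0.122, 0.112, 0.106 and 0.0697).

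**Figure D5:**
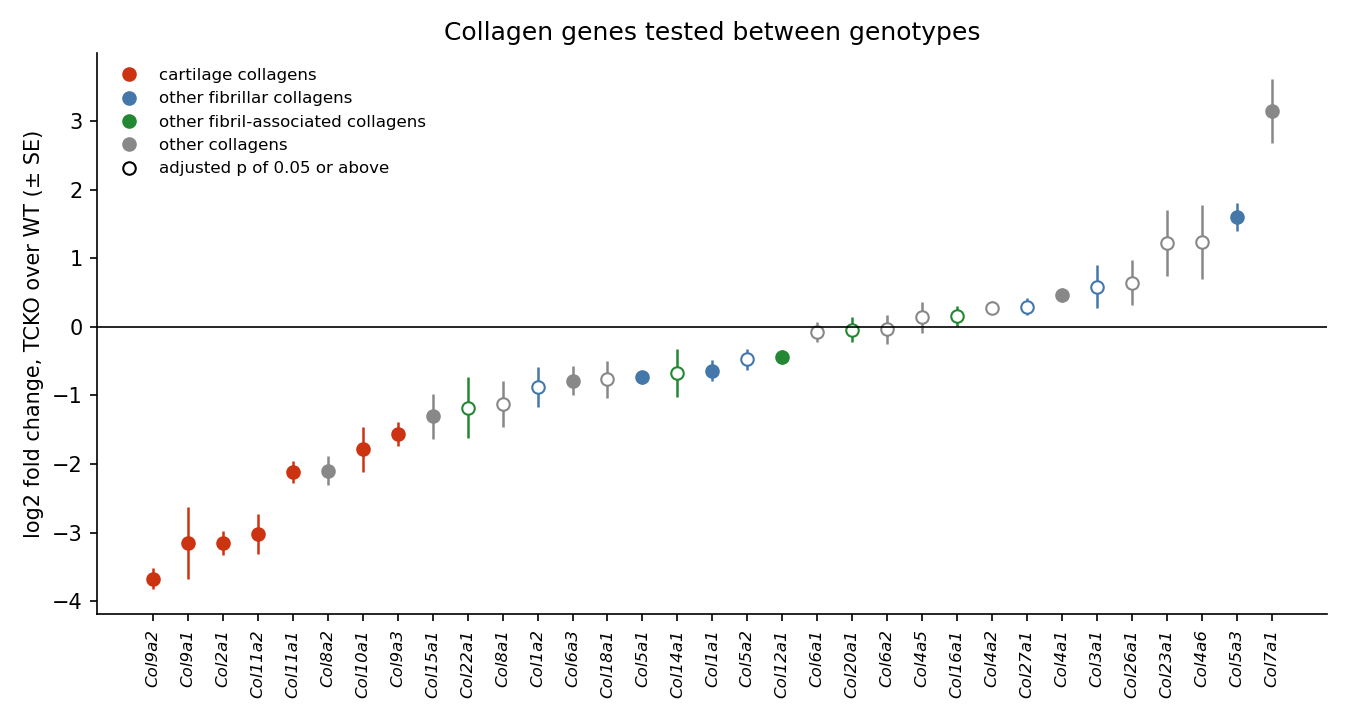
Log2 fold change of TCKO over WT with its standard error for the 33 collagen genes tested, in rising order. Filled points passed an edgeR adjusted p of 0.05. The 7 cartilage collagens (red) take 7 of the 8 lowest places, from -3.67 for Col9a2 to -1.56 for Col9a3, with Col8a2 (-2.10) among them.

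Factors that act on these genes in chondrocytes were examined next. Of 13 chondrocyte regulators tested, 8 were lower, 1 was higher and 4 did not pass (median log2 fold change -0.72). SOX9, the chief driver of cartilage genes, and its partners SOX5 and SOX6 were all lower as transcripts. Sox9 went from 65.4 to 31.6 CPM (-1.05 ± 0.15, edgeR adjusted p = 0.00301), Sox6 from 68.1 to 26.9 CPM (-1.34 ± 0.15, edgeR adjusted p = 0.00105) and Sox5 from 12.1 to 4.46 CPM (-1.45 ± 0.21, edgeR adjusted p = 0.00303). Runx3, which acts in hypertrophic cartilage, was lower as well (-1.87 ± 0.18, edgeR adjusted p = 0.000507). These 4 genes and Wwp2 and Trps1 kept their call with each library left out, and 3 of the 13 were lower with replicates 1 and 2 summed. Arid5b, a coactivator of SOX9, was the higher one (0.34 ± 0.08, edgeR adjusted p = 0.0240), a call lost without WT 1 (0.0787), WT 2 (0.0900) or TCKO 1 (0.0604).

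Most other components of cartilage matrix were lower as well. Of 10 tested, 7 were lower, 1 was higher and 2 did not pass, with a median of -2.31. Acan, the large proteoglycan aggrecan, went from 275 to 41.8 CPM (-2.71 ± 0.17, edgeR adjusted p = 0.000155). Hapln1, the link protein that fixes aggrecan to hyaluronan, was lower (-1.56 ± 0.22, edgeR adjusted p = 0.00449), and Lect1, chondromodulin, was the lowest (-4.73 ± 0.66, edgeR adjusted p = 0.00720). These 3 genes passed with each library left out. The size of the fall of Lect1 rests on 32, 21 and 1 reads in TCKO 1 to TCKO 3. Among the 7 lower genes, Lect1, Matn1, Matn4 and Ucma had fewer than 10 reads in TCKO 3. Matn1, with 9, 9 and 1 reads in TCKO, passed the filter on low counts only through WT, which set its direction in advance. The TCKO libraries of Lect1, Matn4 and Ucma alone would not have passed it, though some held 10 or more reads. For these genes the filter leaned on WT without fixing the direction. The number lower was 4 without WT 1 or 2 or TCKO 1 or 2, 6 without the third library of either genotype, and 1 with replicates 1 and 2 summed. Matn3, a matrilin of cartilage, was the gene that was higher, at 0.850 CPM in WT and 1.87 CPM in TCKO (edgeR adjusted p = 0.0476). Its adjusted p was 0.0628 with the replicate block and 0.167 in DESeq2. Matn3 passed in 1 of the 6 fits with a library left out, that without WT 3. With 7 to 9 reads per WT library, it passed the filter only through TCKO. Prg4 did not pass (1.55 ± 0.44, edgeR adjusted p = 0.0549) but was higher in every TCKO library, at 21.3 to 27.3 CPM against 3.22 to 13.7 CPM. It passed with the replicate block (edgeR adjusted p = 0.0241) and in 1 of the 6 fits with a library left out.

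Enzymes that fold, secrete and process collagen changed in both directions. Of 34 tested, 7 were lower, 5 higher and 22 did not pass (median -0.12). Serpinh1, the collagen chaperone HSP47, had 3379 CPM in WT and 3242 CPM in TCKO (-0.06 ± 0.09, edgeR adjusted p = 0.680), and P4hb, a subunit of prolyl hydroxylase, did not pass either (0.13 ± 0.12, edgeR adjusted p = 0.482). Among the lysyl oxidases, which cross-link collagen, Loxl4 was lower (-1.48 ± 0.16, edgeR adjusted p = 0.000937) and Loxl3 higher (0.80 ± 0.09, edgeR adjusted p = 0.00102). Adamts14, which removes the amino-terminal propeptide of collagens, was higher (1.22 ± 0.14, edgeR adjusted p = 0.00105), and Leprel4, part of a lysyl hydroxylase complex, was lower (-0.67 ± 0.08, edgeR adjusted p = 0.00113). These last 4 genes passed with each library left out, while the number lower was 4 without TCKO 1 or 2, and 1 with replicates 1 and 2 summed.

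Among 7 collagen receptors, 4 were lower, 1 was higher and 2 did not pass. Itga10, the integrin alpha chain that chondrocytes use to bind type II collagen, was lower (-1.33 ± 0.15, edgeR adjusted p = 0.000960) and was the only one of the 5 called receptors that passed in all 6 fits with a library left out. The number lower was 1 without WT 1 and 2 without WT 2. Of 9 proteases that cut collagen or aggrecan, 3 were lower in every such fit, Ctsk (-2.35 ± 0.17, edgeR adjusted p = 0.000203), Adamts5 (-2.02 ± 0.25, edgeR adjusted p = 0.00319) and Mmp2 (-0.84 ± 0.13, edgeR adjusted p = 0.00358). Mmp3 was the higher one (3.77 ± 0.79, edgeR adjusted p = 0.0221), with 0.0930 without WT 1, 0.0995 without WT 2, 0.0742 without WT 3 and 0.0589 without TCKO 2. It had 7, 7 and 11 reads in WT against 183, 119 and 28 in TCKO. The size of its rise thus rests on few WT reads, which alone would not have passed the filter on low counts. Mmp13, the collagenase of hypertrophic cartilage that cleaves type II collagen, had 190, 207 and 133 CPM in WT against 260, 273 and 23.8 CPM in TCKO. TCKO 3 was the lowest and the other TCKO libraries were the highest, so the genotypes overlapped (0.07 ± 0.81, edgeR adjusted p = 0.964).

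Genes that accompany Col10a1 in hypertrophic cartilage went in both directions. Of 10 tested, 5 were lower, 2 higher and 3 did not pass, with a median of -0.33. Runx3 alone passed with each library left out, and the number lower was 1 without TCKO 1 or 2, 2 without WT 1 and 3 without WT 2 or 3. With the replicate block 0 were higher, since Spp1 (log2 fold change 2.69, edgeR adjusted p = 0.0240 without the block and 0.135 with it) and Vegfa (0.70, 0.0198 and 0.0511) no longer passed. Vegfa was also lost without WT 1 (0.0829), WT 2 (0.0690), TCKO 1 (0.0731) or TCKO 2 (0.0709). Spp1 did not pass without WT 1 (0.0818), WT 2 (0.0772), TCKO 1 (0.0651) or TCKO 2 (0.0673).

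The genes with the pattern most like the mean of the 7 were sought among 11106 others with a mean of at least 5 CPM, by the root mean square difference of centred log2 CPM over the 6 libraries. The nearest was Acan (0.104), followed by Adamtsl4 (0.119), which encodes a protein of microfibrils, Npr3 (0.129), the clearance receptor of natriuretic peptides, Arsi (0.162), an arylsulfatase, and Fam26e (0.177). Acan had 260, 241 and 322 CPM in WT against 47.5, 45.7 and 32.3 CPM in TCKO, with the highest and the lowest value in replicate 3, as for Col2a1. The members themselves were at 0.252 for Col2a1, 0.275 for Col11a2, 0.327 for Col11a1 and 0.516 to 0.762 for the other 4. Likeness was measured on the same libraries as the fold changes and is a description.

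Markers of cell types were summed in each library beside the collagens. The 11 of 13 chondrocyte markers listed summed to 654, 627 and 667 CPM in WT 1 to WT 3 and to 168, 161 and 140 CPM in TCKO 1 to TCKO 3, with Snorc and Cytl1 having no value in the table. Of these 11 markers 9 were lower and 1 higher. Matn1, among those lower, passed the filter on low counts only through WT. Lect1 and Ucma, also lower, would not have passed it on their TCKO libraries alone. The number lower was 6 without TCKO 2 and 3 with replicates 1 and 2 summed. This list shares genes with the regulators and matrix lists above.

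Macrophage markers, 8 of 8 listed, summed to 781, 797 and 431 CPM in WT 1 to WT 3 and to 553, 587 and 165 CPM in TCKO 1 to TCKO 3. The genotypes overlapped, while the sum was lower in TCKO at each replicate number. Of the 8 markers 1 was lower (Emr1), 4 were lower without WT 3, and 6 were lower with the replicate block, which brought in Csf1r (edgeR adjusted p = 0.0531 without the block and 0.000301 with it), Cd68 (0.1001 and 0.00274), C1qc (0.510 and 0.0104), Ptprc (0.172 and 0.0163) and C1qa (0.654 and 0.0196). Tendon markers, 4 of 4 listed, summed to 137 to 207 CPM in WT and 89.1 to 118 CPM in TCKO. Tnmd, a membrane protein of tendon, was the 1 lower (edgeR adjusted p = 0.0256), and it passed in 1 of the 6 fits with a library left out, that without WT 3. It was at 0.0844 without WT 1, 0.0815 without WT 2, 0.0866 without TCKO 1, 0.0864 without TCKO 2 and 0.0699 without TCKO 3.

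Osteoblast markers, 12 of 14 listed, summed to 41571 to 44726 CPM in WT and 21753 to 38081 CPM in TCKO. Of 10 tested 5 were lower and 1 was higher, the latter being Spp1, osteopontin, whose mean went from 1272 to 8195 CPM. With the replicate block 7 were lower and 0 higher. The number lower was 2 without TCKO 1, 3 without WT 1, WT 2 or TCKO 2, and 0 with replicates 1 and 2 summed.

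Osteoclast markers, 3 of 6 listed, summed to 123 to 135 CPM in WT and 22.5 to 37.1 CPM in TCKO, nearly all of it Ctsk. Endothelial markers, 5 of 6 listed, summed to 2.65 to 3.48 CPM in WT and 37.9 to 107 CPM in TCKO through Kdr, while Pecam1, Cdh5, Tek and Emcn stayed below 1 CPM on average in both genotypes. Kdr had 4, 4 and 15 reads in WT, which alone would not have passed the filter on low counts. Muscle markers, 5 of 6 listed, summed to 8.64 to 24.7 CPM in WT and 24.9 to 62.6 CPM in TCKO. Acta1 was higher, a call lost without WT 1 (edgeR adjusted p = 0.0551) and with the replicate block (0.0635). Myod1 and Myog stayed below 1 CPM on average in both genotypes. Adipocyte markers, 3 of 5 listed, summed to 17.7 to 20.7 CPM in WT and 10.5 to 14.7 CPM in TCKO, and glial and neuronal markers, 3 of 5 listed, to 49.5 to 64.7 CPM and 61.9 to 72.8 CPM, and no member of either list passed. Cebpa of the adipocyte list passed with the replicate block (edgeR adjusted p = 0.00777) and without WT 3 (0.0487), and Tubb3 of the neuronal list was higher without WT 3 (0.0152). Of the epithelial markers 2 of 5 were listed and summed to at most 1.60 CPM, and 0 of 4 erythroid markers had a value in the table. The part of cell composition in the lower cartilage collagen transcripts was not tested.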

How the data were processed

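RNA-seq of 3 WT and 3 TCKO libraries was used. The authors deposited raw read counts per gene for each library, aligned to GRCm38. The submitters' processing notes name HISAT2 whereas STAR is the aligner in the published methods. The counting program and its strand setting were not given in the sources used here. In all 16455 genes have a value, each with at least 10 reads in all, so a gene that is not listed has no level. The table also holds the authors' normalized means, fold changes, p-values and FDR, which were not used.

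Counts were tested with edgeR 4.0.16 in R 4.3.3 (filterByExpr, TMM scaling, robust quasi-likelihood fit with genotype as its only term). This kept 13630 genes and set aside 2825. P-values are 2-sided and adjusted (Benjamini-Hochberg) across the 13630 genes. The standard error is the size of a log2 fold change over the square root of its F value. The published methods used DESeq2, which was an alternative here (1.42.0), as was limma-voom (3.58.1). CPM used TMM library sizes, and RPKM was CPM per kilobase of exons merged over transcripts of GENCODE M21, found for 15496 genes. Ratios between chains had 0.5 counts added. Coordinates are 1-based. Promoters came from RefSeq. The scripts were tested on simulated data.

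The members and the 9 other gene lists were chosen with earlier results of these data known. Named genes were the 7 members, up to 4 genes per list with the smallest adjusted p, and the 3 most abundant. Also named were genes needed to state a result, genes overlapping or near a member, and the 5 most alike. Matn1, Matn3, Matn4, Prg4 and Col6a3 were singled out after their values were seen. Not all genes are named. Table symbols were used where older (Lect1 for Cnmd, Leprel4 for P3h4). The replicate numbers were checked for pairing: deviations from the group means of same-numbered libraries correlated at 0.230, 0.252 and 0.358 over 11099 genes, so the numbers were taken to pair the samples, from the data and not from the labels. WT 2 with TCKO 1 (0.301) and WT 1 with TCKO 2 (0.212) correlated as well, while replicate 3 correlated negatively with replicates 1 and 2 of the other genotype, so the data set replicate 3 apart and do not tell 1 from 2. Alternatives were other scaling, filters and tests, the replicate block, each library left out, and replicates 1 and 2 summed. The fit within replicates 1 and 2 was chosen after seeing the data.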

Additional observations from a re-analysis of the deposited data

How the results depend on the processing

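The 7 cartilage collagen genes were lower by more than 2-fold in each of the 15 alternatives except with replicates 1 and 2 summed, where Col9a1 (log2 fold change -3.35, edgeR adjusted p = 0.105) and Col10a1 (-1.83, edgeR adjusted p = 0.105) did not pass. With the replicate block 7 of 7 were lower, 944 genes changed by more than 2-fold against 827 without it, and the call of no member changed. Col10a1 passed the filter on low counts only through WT, so it adds no support to the counts of members here. At any fold, 2500 genes passed the threshold on adjusted p, between 1190 and 3313 with 1 library left out, 353 with replicates 1 and 2 summed (288 above 2-fold) and 6371 within replicates 1 and 2 (1342 above 2-fold), an alternative chosen after seeing the data. Over the 9 other lists 37 distinct genes were lower, between 22 and 45 with 1 library left out and 8 with replicates summed. There 14 were higher, between 6 and 17 with 1 library left out, 2 with replicates summed and 32 within replicates 1 and 2.

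Of the 4 ratios whose genotypes overlapped, 3 changed sign with a library left out, and Col9a2 over Col2a1 (-0.49) ran from -0.70 to -0.35. The log2 difference of Col9a1 over Col2a1 was -0.34 and ran from -0.71 to 0.32 (0.32 without TCKO replicate 3), Col11a2 over Col2a1 was 0.08 and ran from -0.10 (without TCKO replicate 1) to 0.23, and Col9a1 over Col9a2 was 0.15 and ran from -0.29 (without TCKO replicate 1, and -0.19 without TCKO replicate 2) to 0.93. The cause was not tested. Depth limits Col10a1, with 5 to 8 reads per TCKO library, and 3 libraries per genotype limit every permutation test.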
